A study of Mus musculus with 2 samples.

Results

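The BTG/TOB family of antiproliferative genes was followed in a pair of mouse fibroblast cultures, one of them depleted of the deadenylase CCR4b. The 5 members, Btg1, Btg2, Btg3, Tob1 and Tob2, were chosen by gene symbol, from 18194 genes that have their own probe set on the array. They had 13 probe sets in all, of which 12 carried a member as their only symbol and stood for 4 of the 5 members. Btg3 was read only by a probe set annotated to Btg3 and to Gm7334, a transcribed pseudogene, so its value could come from either. The cells were NIH3T3, an immortalised mouse fibroblast line, grown in DMEM with 10% serum. Both cultures were infected with a retrovirus expressing a short hairpin RNA: the group Control RNAi received a control hairpin, and the group CCR4b RNAi a hairpin against CCR4b, the product of Cnot6l. The number of hairpins, their sequences and the time after infection were not stated in the labels. Total RNA of each culture was hybridised to 1 Affymetrix GeneChip array for the mouse genome, on which short probes in sets read each transcript. With 1 array per group there was no replicate error and no p-value could be given, so "higher" and "lower" describe these arrays only.

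BTG and TOB proteins share an amino-terminal domain that binds the CAF1 deadenylases, the products of Cnot7 and Cnot8, and through them the CCR4-NOT complex that shortens poly(A) tails of mRNAs. CCR4-type enzymes such as CCR4b sit in the same complex by binding CAF1. TOB proteins also bind the cytoplasmic poly(A)-binding protein, and several members slow entry into the cell cycle when overproduced in fibroblasts. Btg2 was first found as an immediate early gene and is a target of p53. Btg1 is known for its high expression in resting cells and as a target of FOXO factors. The comparison describes whether the mRNAs of these deadenylase partners differed when one catalytic subunit of their complex was depleted.

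The RefSeq entries for the mouse genome (GRCm38.p6) held a promoter for all 5 members. The 250 bases before the start site are shown for the 4 members with a probe set of their own, because Btg2 and Tob1 differed in opposite directions and Btg1 and Tob2 were split between their probe sets. They lie at chr1:134079156-134079405 on the minus strand (Btg2), chr11:94211204-94211453 on the plus strand (Tob1), chr10:96616751-96617000 on the plus strand (Btg1) and chr15:81858327-81858576 on the minus strand (Tob2). Each is written 5′ to 3′ on the strand of its gene. Capitals mark matches to the cAMP response element (CRE, TGACGTCA), the FOXO motif (GTAAACA), the CCAAT box (CCAAT) and the TATA box (TATAAA), each searched on both strands.

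Btg2: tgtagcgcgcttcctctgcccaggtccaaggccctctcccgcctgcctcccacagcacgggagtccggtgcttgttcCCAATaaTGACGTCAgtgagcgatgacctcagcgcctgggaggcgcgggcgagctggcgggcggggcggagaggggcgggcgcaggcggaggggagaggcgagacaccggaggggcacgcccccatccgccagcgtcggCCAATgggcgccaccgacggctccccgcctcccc
Tob1: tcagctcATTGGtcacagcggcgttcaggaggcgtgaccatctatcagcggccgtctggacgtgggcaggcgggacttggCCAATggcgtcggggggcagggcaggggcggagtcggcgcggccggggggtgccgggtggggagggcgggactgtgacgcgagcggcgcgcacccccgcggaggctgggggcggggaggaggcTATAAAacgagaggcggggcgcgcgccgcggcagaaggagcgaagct
Btg1: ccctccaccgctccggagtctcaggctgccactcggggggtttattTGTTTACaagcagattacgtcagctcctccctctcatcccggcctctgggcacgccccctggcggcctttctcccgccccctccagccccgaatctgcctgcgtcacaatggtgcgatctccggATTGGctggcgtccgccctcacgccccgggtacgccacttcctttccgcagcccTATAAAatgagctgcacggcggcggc
Tob2: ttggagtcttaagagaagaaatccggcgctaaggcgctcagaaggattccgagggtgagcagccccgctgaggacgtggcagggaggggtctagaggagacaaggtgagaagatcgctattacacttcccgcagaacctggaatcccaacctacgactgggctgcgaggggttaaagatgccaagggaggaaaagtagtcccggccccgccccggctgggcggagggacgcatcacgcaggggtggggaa

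The Btg2 window held a CRE match that began 166 bases before the start site, and 1.55% of all 32851 RefSeq mouse promoter windows of this length held one. Btg1 was the member with a FOXO match, 204 bases before its start site, a motif present in 3.17% of windows. TATA box matches stood 26 bases before the start site of Btg1 and 47 bases before that of Tob1, and 12.4% of windows held one. CCAAT boxes, in 33.85% of windows, occurred 2 times each in Btg2 and Tob1, 1 time in Btg1 and 0 times in Tob2. None of the marked motifs overlapped another. GC boxes (GGGCGG, in 32.7% of windows) were present in all 4 windows and are not marked. No match was found in these 4 windows to the AP-1 motif (TGANTCA, in 6.75% of windows), the E2F motif (TTTCGCGC, in 0.256%) or the CArG box of serum response factor (in 1.47%). A match describes letters in the window and not a bound site.

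A floor of 8.07 units, the 50th percentile of all deposited signals, stood in for detection calls, and a gene or probe set was counted as measured if the brighter array reached it. Both arrays carried the signature of fibroblasts. All 10 fibroblast markers, among them Col1a1, Vim and Pdgfra, were above the floor on both arrays, and their signals summed to 20376 units with the control hairpin and 23454 with the CCR4b hairpin. Of the 16 markers of epithelial, endothelial, haematopoietic and muscle cells with a probe set, 14 were below the floor on both arrays, the exceptions being Epcam (19.4 and 29.5 units) and Adgre1 (13.7 and 9.13 units). The depletion was visible in the target. Cnot6l gave 102 units with the control hairpin and 43.0 with the CCR4b hairpin on its brightest probe set (log2 ratio -1.25), and all 4 of its probe sets were lower. Among all 11915 measured genes, the median log2 ratio of CCR4b RNAi over control RNAi was -0.070 and the robust SD, scaled from the median absolute deviation across genes, was 0.49. Actb and Gapdh had log2 ratios of -0.11 and -0.075. A lower signal in such bulk RNA can mean fewer cells with a transcript or less of it per cell, and the arrays cannot tell these apart.

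BTG/TOB mRNAs differed little between the cultures. None of the 4 members with a probe set of their own was at least 1.5-fold higher or lower after CCR4b RNAi. In the background, 11.3% of measured genes were 1.5-fold or more higher and 14.6% were 1.5-fold or more lower, so most genes (74.0%) lay in between, and 0 of 4 does not set the family apart from the background. Taking the brightest probe set for each gene, Btg2, Btg1 and Tob2 lay above 0 with log2 ratios of 0.53, 0.14 and 0.095, and Tob1 below it with -0.30. Their median was 0.12, against -0.070 for all measured genes.

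**Figure D1:**
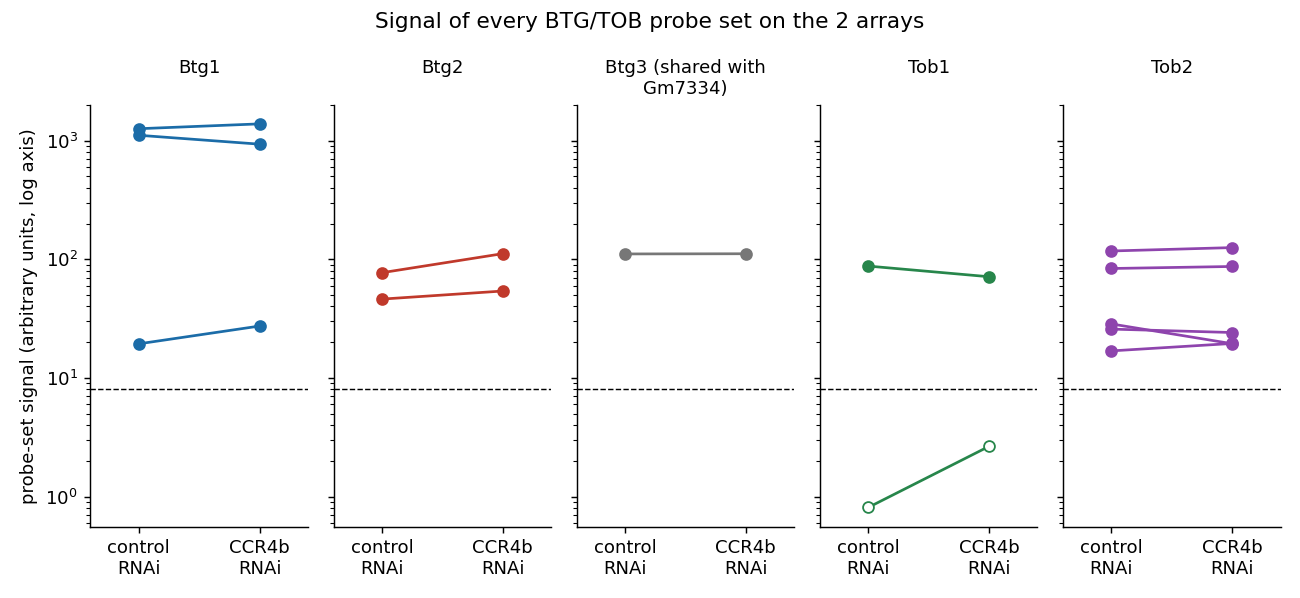
Signal of every probe set annotated to Btg1, Btg2, Btg3, Tob1 and Tob2 (arbitrary units, log axis) on the control RNAi and the CCR4b RNAi array. Each line joins the 2 values of 1 probe set, the dashed line is the floor of 8.07 units, and open points are below it on both arrays. Both Btg2 lines run upwards, the measured Tob1 line runs downwards, and the lines of Btg1 and Tob2 run both ways.

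Btg2, the immediate early and p53-induced member, gave the highest ratio of the family. Its brighter probe set (1416250_at) gave 77.0 units with the control hairpin and 111 with the CCR4b hairpin, a 1.45-fold higher signal. The second (1448272_at), designed against the same mRNA, read 46.1 and 54.0 units, 1.17-fold higher (log2 ratio 0.23). Both probe sets therefore had more signal on the CCR4b RNAi array, and they kept that direction after division by the array median, after quantile normalization and after a loess correction. The log2 ratio of 0.53 lay at percentile 87.2 of all measured genes and 1.56 robust SDs above the median of genes of similar signal, whose robust SD was 0.43. With quantile normalization it was 0.64 and with loess 0.65, both past 1.5-fold, while division by the array median gave 0.44.

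Tob1, a partner of CAF1 and of SMAD proteins, was lower on its brightest probe set, as was Tob2 without its _x_at and _s_at probe sets. The probe set 1423176_at gave 87.6 units with the control hairpin and 71.2 with the CCR4b hairpin, a 1.23-fold lower signal (log2 ratio -0.30). It was below 0 under all 3 other scalings, between -0.39 and -0.18. This is 0.37 robust SDs below the median of genes of similar signal, which was itself -0.14, so Tob1 sat close to the middle of its signal class. The other Tob1 probe set (1440844_at) read 0.811 and 2.65 units, below the floor on both arrays, and gave no ratio.

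Btg1, the member linked to quiescence, was read by 3 probe sets that did not move together. The brightest (1426083_a_at) gave 1258 units with the control hairpin and 1382 with the CCR4b hairpin (log2 ratio 0.14). The next (1437455_a_at) read 1108 and 932 units (log2 ratio -0.25). The dimmest (1442018_at) read 19.4 and 27.4 units, 1.41-fold higher (log2 ratio 0.50). The pair of bright probe sets thus crossed between the arrays, and no direction could be given for Btg1 as a gene. Each of the 3 kept its own sign under the other scalings. The range of 0.75 log2 units over these probe sets compares with a median range of 0.55 over 1144 genes that likewise had 3 probe sets at or above the floor, and 30.9% of those genes had a range at least as wide.

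Tob2, the close relative of Tob1, also went both ways over its 5 probe sets. The brightest (1448667_x_at) read 117 and 125 units (log2 ratio 0.095) and the next (1448666_s_at) 83.6 and 86.9 units (log2 ratio 0.057). Both belong to classes of probe sets that can hybridise to other transcripts, and with division by the array median their log2 ratios were 0.0012 and -0.037. The remaining 3 are not of that kind, and without the first pair the gene value of Tob2 turns to -0.096. Of these, 1417310_at read 25.8 and 24.1 units (log2 ratio -0.096), 1417309_at read 16.9 and 19.5 units (log2 ratio 0.21), and 1431776_at read 28.5 and 19.4 units. The last, 1.47-fold lower (log2 ratio -0.55), was designed against a different target sequence from the other 4 and was the lowest of the family. It passed 1.5-fold lower after division by the array median (-0.65), with quantile normalization (-0.62) and with loess (-0.62). The range of 0.76 log2 units compares with a median range of 0.84 over 170 genes that likewise had 5.

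Btg3, which encodes the member also called ANA, could be described only through the probe set it shares with Gm7334 (1449007_at). That probe set gave 110.8 units with the control hairpin and 111.2 with the CCR4b hairpin, a log2 ratio of 0.0053, and with the other scalings lay between -0.089 and 0.14. Btg4, the family gene outside the 5 members and known from oocytes, read 0.986 and 6.50 units and was below the floor on both arrays.

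Of the 12 probe sets with a member as their only symbol, 11 were above the floor on both arrays. Of these, 7 had a log2 ratio above 0 and 4 below it, with a median of 0.095 and values from -0.55 to 0.53. None of the 11 reached 1.5-fold in either direction, where 13.1% of 25342 measured probe sets were past 1.5-fold upwards and 13.6% past it downwards. Probe sets of 1 gene share their RNA and are not replicates. Over 4550 genes with several probe sets above the floor, log2 ratios varied with a robust SD of 0.30 per probe set between the 2 brightest of one gene. This spread was not measured for dimmer probe sets, which are among the 11 values here. Of these values, 8 lay no farther than 0.30 from 0.

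**Figure D2:**
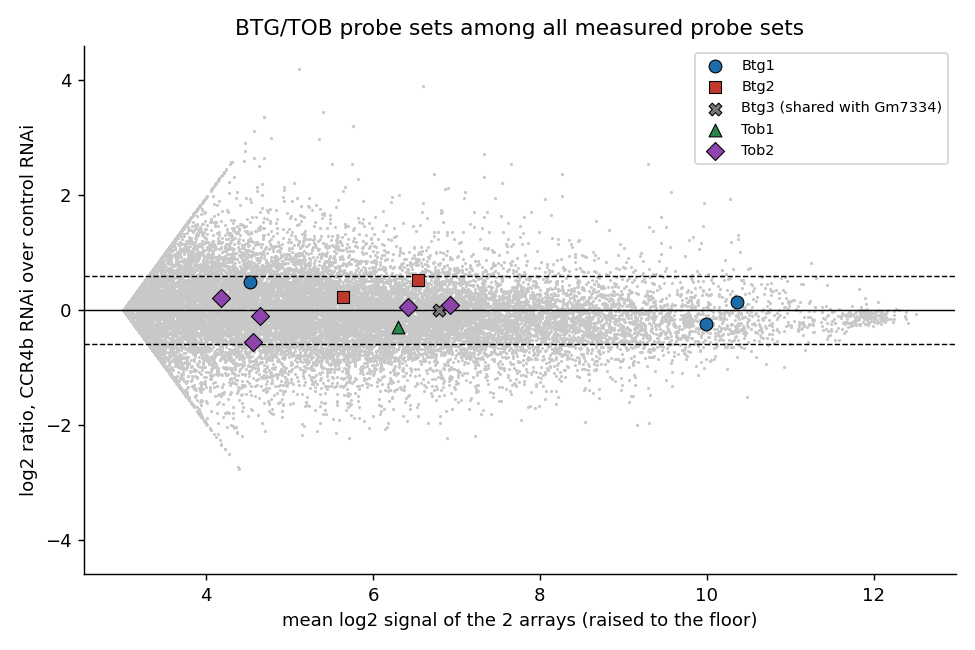
Log2 ratio of CCR4b RNAi over control RNAi against the mean log2 signal of both arrays, with all measured probe sets in grey and the BTG/TOB probe sets in colour. Dashed lines mark 1.5-fold, and all BTG/TOB points lie between them, from -0.55 to 0.53. The straight edges at low signal come from values raised to the floor.

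The order of the members' log2 ratios on their brightest probe sets, from high to low, was Btg2, Btg1, Tob2 and Tob1. The places of Btg1 and Tob2 depend on the probe set: with the second brightest Btg1 probe set, a choice made after seeing the data, Btg1 (-0.25) lay below Tob2. Signals of different probe sets depend on the probes, so the levels themselves were not ordered. Btg2 and Tob1 were the farthest apart, with a difference of 0.83 log2 units, or 0.68 with the median over probe sets. The other scalings and floors gave 0.82 to 0.84. Those scalings shift genes of similar signal nearly alike, and the other floors lie below these signals. The narrow range was therefore built in and does not show how certain the difference is. By comparison, the spread between probe sets corresponds to 0.42 log2 units for a difference of 2 probe sets. It is a robust SD within these 2 arrays, not a bound, and holds no variation between cultures, infections or hybridisations. The log2 ratio of Btg1 exceeded that of Tob2 by 0.040, which is within that spread. The difference of Btg1 minus Btg2 was -0.40 and that of Tob1 minus Tob2 was -0.39, again within it. With the second brightest Btg1 probe set, Btg1 minus Btg2 was -0.78, beyond the spread. Btg2 exceeded Tob2 by 0.44, just beyond the spread. That difference was 0.32, within the spread, with the median over probe sets, and 0.63, beyond it, without _x_at and _s_at probe sets. Btg1 exceeded Tob1 by 0.43, but by 0.049 with the second brightest Btg1 probe set.

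**Figure D3:**
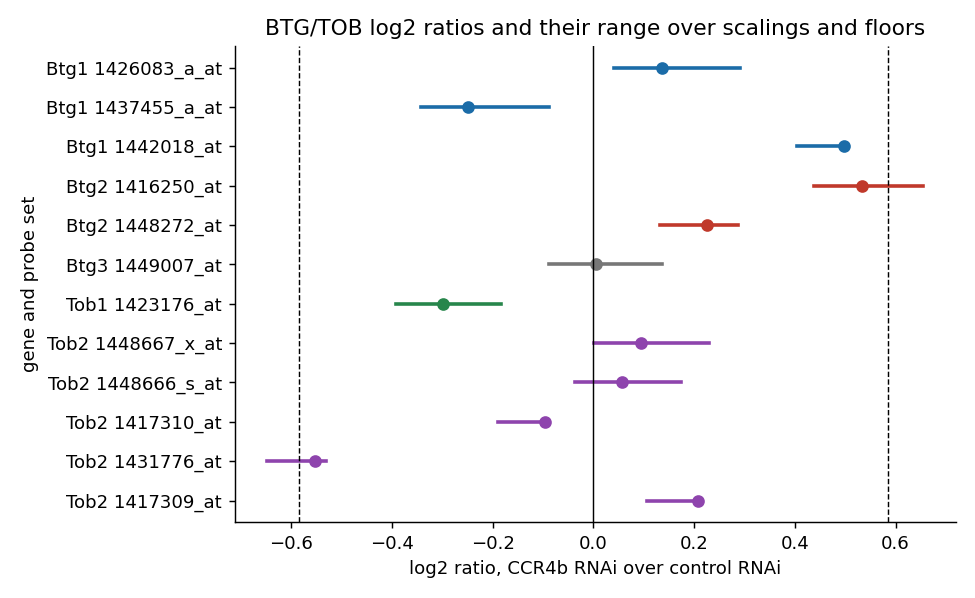
Log2 ratio of CCR4b RNAi over control RNAi for each BTG/TOB probe set above the floor on both arrays. Points are the reported values, bars span the other scalings and floors in which the probe set was measured, and dashed lines mark 1.5-fold. The bars of the brighter Btg2 probe set and of the lowest Tob2 probe set cross the 1.5-fold lines, and those of Btg3 and of 1448666_s_at of Tob2 cross 0.

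By distance between log2 signals over the 2 arrays, the genes most like Btg2 were Mdm2, a ubiquitin ligase (76.1 and 111 units, distance 0.018), and Tmem159 (77.7 and 110.2 units, distance 0.021). Those most like Tob1 were Thap4 (distance 0.017) and Tbc1d10b (0.032). For Btg1 they were Slc38a2, an amino acid transporter (0.043), and Arl1 (0.054), and for Tob2 the RNA gene Snhg12 (0.011) and Rnf34 (0.025). With 2 arrays this likeness says only that signal and ratio were close.

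The complex that BTG/TOB proteins bind was lower in its median. Of its 11 measured subunits, 4 were past 1.5-fold downwards and 0 upwards, against 14.6% and 11.3% of all measured genes. The 4 include Cnot6l, the target of the hairpin, so that call was built into the comparison. The median log2 ratio of the 11, Cnot6l included, was -0.30. With quantile normalization or loess the count of lower subunits was 2, Cnot6l and Cnot3. The brightest probe sets of Cnot6 and Cnot11 came back within 1.5-fold. Over all measured genes, 1547 of 11911 were lower with quantile normalization and 1576 of 11915 with loess. The CAF1 enzymes that form the docking site were among those within 1.5-fold. Cnot7 read 136 and 123 units on its brightest probe set (log2 ratio -0.14, and -0.0030 to -0.24 under the other scalings), with -0.20 and -0.42 on the others. Cnot8 read 142 and 115 units (log2 ratio -0.30), with -0.24 on its second probe set. The 4 lower subunits were the CCR4-type enzymes Cnot6l and Cnot6 (log2 ratio -0.69, with -1.03, -0.80 and -0.85 on its other probe sets, which stayed past 1.5-fold lower under the other scalings), the scaffold-associated Cnot3 (-0.88, but 0.27 on its dim probe set) and Cnot11 (-0.62). Cnot10 (-0.42, but 0.28 and 0.31 on dimmer probe sets), Cnot2 (-0.19, but 0.24 on one other probe set), Tnks1bp1 (-0.11), Cnot9 (0.046) and Cnot4 (0.18) lay within 1.5-fold. The sign of Cnot9 turned to -0.048 with division by the array median and that of Tnks1bp1 to 0.0050 with quantile normalization. Cnot1 was not analysed here because its probe sets carry a second symbol.

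Protein partners and modifiers of the family went both ways. Of 17 measured, 2 were past 1.5-fold upwards and 3 downwards, near the shares of 11.3% and 14.6% over all measured genes. With quantile normalization or loess 1 was past it downwards. With the floor at the 75th percentile 0 of 14 were past it upwards and 2 downwards, beside 472 and 1025 of 7284 measured genes. Their median log2 ratio of -0.11 turned to 0.048 with quantile normalization, 0.022 with loess and 0.12 with the median over probe sets. Cpeb1, which binds cytoplasmic polyadenylation elements, read 10.6 and 29.2 units (log2 ratio 1.46). Hoxb9, a homeobox factor reported to bind BTG1 and BTG2, was below the floor with the control hairpin, at 3.24 units, and read 15.2 units with the CCR4b hairpin, a log2 ratio of at least 0.91. The lower ones were Chek1, the checkpoint kinase that BTG3 binds (49.0 and 21.3 units, log2 ratio -1.20), Xpo1, the nuclear export receptor (318 and 195 units, log2 ratio -0.70), and Pabpc4, a poly(A)-binding protein (450.1 and 298 units, log2 ratio -0.59, with -0.33 on its other probe set).

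Immediate early genes, the class to which Btg2 belongs, had a median log2 ratio of -0.024 over 19 measured genes, which turned to 0.14 with quantile normalization and 0.15 with loess. Of these genes 4 were past 1.5-fold upwards and 3 downwards, against 11.3% and 14.6% of all measured genes. The counts were 1 and 3 of 14 with the floor at the 75th percentile, beside 472 and 1025 of 7284 measured genes. They were 4 and 1 of 19 with the median over probe sets, beside 1229 and 1518 of 11991. Egr1, a zinc finger factor, read 76.3 and 152 units (log2 ratio 0.996), and Junb, Zfp36 and Ier2 had log2 ratios of 0.71, 0.70 and 0.61. Myc read 83.7 and 39.1 units (log2 ratio -1.10), Fosl1 had -0.75 (-0.23 on its second probe set), and Klf4 had -0.64 (-0.30 on its second). Thus Btg2 lay between the higher and the lower genes of its class.

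Genes of the p53 response had a median log2 ratio of 0.25 over 16 measured. Beside 11.3% and 14.6% of all measured genes, 4 of them were past 1.5-fold upwards and 0 downwards. With division by the array median 1 was past it downwards, Plk2 (-0.66, against -0.57 as deposited), and with the median over probe sets 1, Trp53inp1 (-0.66). Upwards, 5 of 16 were past it with quantile normalization or loess, beside 1429 of 11911 and 1381 of 11915 measured genes. At the 75th percentile floor 3 of 15 were, beside 472 of 7284. None was past it downwards in these settings. Zmat3, an RNA-binding zinc finger gene, read 56.0 and 242 units (log2 ratio 2.11). Cdkn1a, which encodes the inhibitor p21, read 244 and 481 units (log2 ratio 0.98), and Phlda3 had 0.69. Rrm2b, a ribonucleotide reductase subunit, had 0.78 on its brightest probe set but -0.75 on a dimmer one. Btg2, at 0.53, was above the median of this list, below these 4 genes and just below Mdm2 (0.55), also of this list. FOXO factors and quiescence-linked genes, the group placed beside Btg1, had a median of 0.15 over 14 measured. In this group 4 were past 1.5-fold upwards and 1 downwards, against the same 11.3% and 14.6% of all measured genes. Pdk4, a mitochondrial kinase (log2 ratio 1.25), Gas2 (1.03), the factor Foxo3 (0.74, and 0.80 on its second probe set) and Txnip (0.72) were higher. Klf2 read 27.4 and 12.8 units and was lower (log2 ratio -1.09).

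Cell-cycle genes of G1 and division were mostly lower. Of 15 measured, 9 were past 1.5-fold downwards and 1 upwards, against 14.6% and 11.3% of all measured genes. Their median log2 ratio was -0.82. The count of lower genes was 8 with quantile normalization or loess, and 7 without _x_at and _s_at probe sets. With the floor at the 25th percentile it was 10 of 16, beside 3516 of 16254 measured genes. At the 75th percentile it was 8 of 13 with 0 upwards, beside 1025 lower and 472 higher of 7284 measured genes. Ccnb1 and Cdk2 were not among the measured genes. Cdk1, the mitotic kinase, read 672 and 260.4 units (log2 ratio -1.37). Cyclin A2 (Ccna2) read 325 and 122 units (log2 ratio -1.42) and the proliferation marker Mki67 read 237 and 96.5 units (log2 ratio -1.30). Rb1, the retinoblastoma gene, read 13.5 and 28.1 units and was higher (log2 ratio 1.06). These differences stood beside the small ones of Btg1, Btg2, Tob1 and Tob2 in the same pair of cultures. Their part in the BTG/TOB values was not tested.

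**Figure D4:**
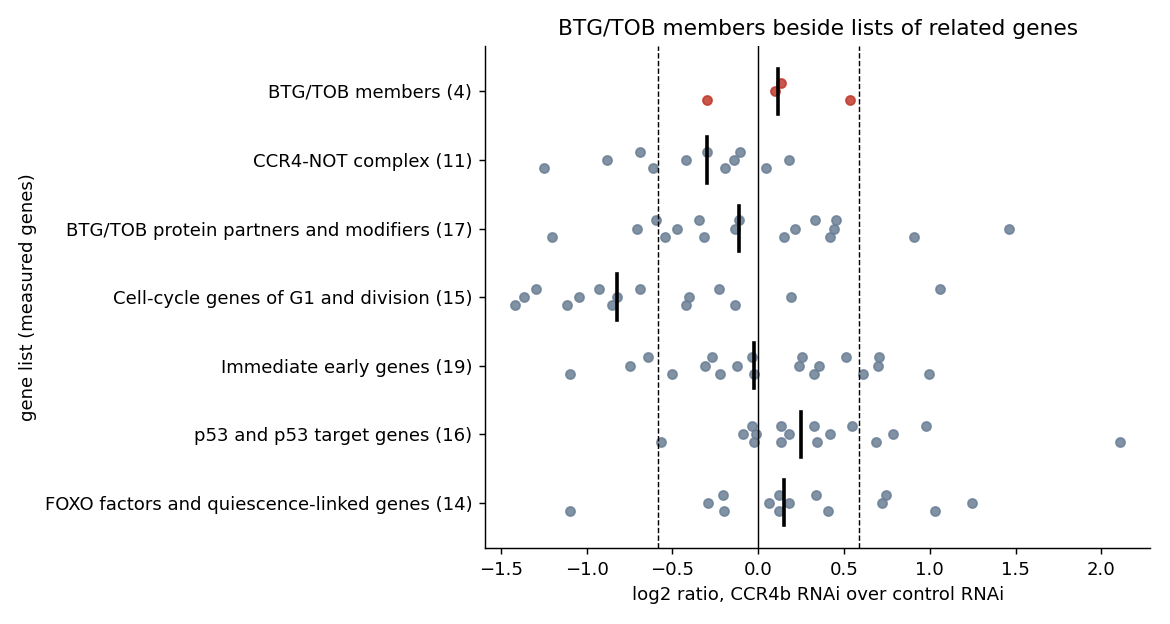
Log2 ratio of CCR4b RNAi over control RNAi for each measured gene of the BTG/TOB family and of 6 lists of related genes, with the number measured in parentheses. Points are genes, black bars are list medians and dashed lines mark 1.5-fold. The 4 BTG/TOB genes lie between the dashed lines, as do 74.0% of all measured genes. With quantile normalization or loess, not drawn here, Btg2 passes 1.5-fold. The other lists are longer, with 11 to 19 measured genes, and each has genes beyond the lines.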

How the data were processed

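The authors computed the deposited linear intensities of probe sets in GCOS with a global normalization, per the series design text, and the submitters' processing notes name GCOS too. Its version and the normalization target were not stated, and the table used here has no detection calls. Of 45101 probe sets, 34958 carried 1 gene symbol in the platform annotation, 932 several and 9211 none here. Intensities were raised to the floor and turned into log2 ratios. Each gene was represented by its brightest probe set (mean log2 signal before the floor). Robust SDs of genes of similar signal come from 10 equal classes of mean signal. The number of arrays limits the precision. Median signals of the control and the CCR4b RNAi array were 7.81 and 8.34 units, and upper quartiles 35.9 and 35.8 units.

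The groups came from the knockdown label, and no test was made. The members and lists were chosen with earlier results of these data known. Named genes were all member probe sets, the CCR4-NOT list, up to 3 highest and 3 lowest genes of each other list at 1.5-fold and above the floor on both arrays, Actb, Gapdh, and the 2 nearest genes of each member. Hoxb9, Ier2, Phlda3, Plk2, Trp53inp1 and Txnip were named outside this rule, after their values were seen, to complete short counts. The 8 alternatives were 3 scalings (array median, quantile, loess with span 0.3), a floor at the 25th or at the 75th percentile, log2 of signal plus 1 without a floor, the median over probe sets, and leaving out _x_at and _s_at probe sets. The procedure was tested on simulated data with large planted differences in bright genes and less noise than between the real probe sets. That test does not cover ratios as small as those of the members. Python 3.11.15, pandas 2.3.3 and statsmodels 0.14.6 were used.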

Additional observations from a re-analysis of the deposited data

How the results depend on the processing

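Of 112 values under the 8 alternatives, 91 moved by less than the spread between probe sets or, for counts, by no more than 1.5 times. That spread was 0.30 log2 units, scaled to list size for a list median, so small ratios could change sign within it. Reversals were labelled only for log2 ratios past 1.5-fold as deposited, here the cell-cycle median alone, which kept its sign. Signs did turn for Tob2 and Btg3 and for the medians of partners and immediate early genes. All 5 single BTG/TOB log2 ratios moved by less than the spread under the 8 alternatives: 0.042 to 0.29 for Btg1, 0.38 to 0.65 for Btg2, -0.39 to -0.18 for Tob1, -0.096 to 0.23 for Tob2 and -0.089 to 0.14 for Btg3. Some alternatives could not move them. The signals behind these ratios lie above both other floors. Tob1 and Btg3 each rest on a single measured probe set, so the choice of probe set changed nothing. Such unmoved values count among the 91. With the second brightest Btg1 probe set, chosen after seeing the data, Btg1 had -0.25. Their median ranged from 0.020 to 0.26. The count of members at least 1.5-fold higher went from 0 to 1, Btg2, with quantile normalization and with loess. The medians of the lists moved as follows. Division by the array median gave -0.21 for partners, -0.12 for immediate early genes and 0.16 for p53 genes, and 0.058 for FOXO genes against 0.15 as deposited. Quantile normalization gave -0.17 for CCR4-NOT, 0.048 for partners, -0.72 for cell-cycle, 0.14 for immediate early and 0.26 for FOXO genes. Loess gave -0.16, 0.022, -0.67, 0.15 and 0.25 for the same lists. The 75th percentile floor gave 0.13 for p53 and 0.34 for FOXO genes, the median over probe sets 0.12 for partners and -0.68 for cell-cycle genes, and leaving out _x_at and _s_at probe sets -0.54 for cell-cycle and 0.26 for FOXO genes. The cause was not tested. Of genes past 1.5-fold, 43.7% were higher, and 32.4% with division by the array median. No paired analysis was possible because each group holds 1 array.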
